A study of Mus musculus with 9 samples.

Results

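Mouse D2.OR mammary tumour cells grown in collagen I were compared with the same cells in Matrigel, and the genes described are those whose change was common to both forms of collagen I. For each gene, the 3 arrays of fibrillar collagen I and the 3 of non-fibrillar collagen I were pooled with equal weight per form and set against the 3 Matrigel arrays. Of 19938 genes, 2245 (11.3%) had all 6 collagen values on one side of all 3 Matrigel values, 958 of them (4.8%) higher in collagen and 1287 (6.46%) lower. Among these, 1434 genes also passed limma's two-sided test of collagen against Matrigel at a Benjamini-Hochberg adjusted p below 0.05, and these are called shared genes. They made up 7.19% of all genes, with 559 higher in collagen (2.8%) and 875 lower (4.39%). Among all genes, 1832 (9.19%) passed the test. Of these, 398 had overlapping values, and a further 811 genes did not overlap but missed the threshold.

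D2.OR is a tumour line known for lying dormant after it has spread. RNA of the line, grown in 3D culture, was hybridised to 9 Affymetrix arrays, 3 each for fibrillar collagen I, non-fibrillar collagen I and Matrigel. The labels name no added agent or genetic change, and no label says whether replicates came from separate cultures. The p-values therefore measure the spread of these samples alone, which can be technical. Cells in a bulk sample were not counted, so fewer cells of a kind and less RNA per cell cannot be told apart. The Matrigel arrays are known as such by their titles alone. Their growth label carries the wording of the non-fibrillar collagen arrays, and the series' design text lists only the collagen conditions. Their accession numbers are also later than those of the other 6 arrays, so a batch that goes with them and the Matrigel group cannot be told apart, which holds for every difference given here.

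Collagen I is the main fibre-forming protein of connective tissue, and cells bind it through integrins with an alpha subunit for collagen and through discoidin receptors. Matrigel is an extract of a basement membrane tumour, rich in laminin and type IV collagen, and is bound mainly through laminin-binding integrins and dystroglycan. In the mammary gland the epithelium rests on basement membrane, and contact with collagen I is known from breaches of that layer and from fibrotic stroma.

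Array medians lay between 5.98 and 6.05 log2 units. Pearson's r over all probe sets, which are not independent replicates, was 0.994 to 0.996 within groups and 0.992 to 0.996 between collagen and Matrigel arrays. Of 17 mammary epithelial markers, Krt8 (13.12 to 13.33 log2 units over the 9 arrays), Krt18 (12.60 to 12.92) and Krt14 (11.21 to 11.56) were bright. Epcam (5.84 to 6.24) lay near the array medians, and Esrp1 (4.64 to 4.91) and Grhl2 (4.45 to 4.74) below them. No detection calls were used, so a dim marker cannot be called absent.

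Most shared changes were small. The median size over the 1434 shared genes, without regard to sign, was 0.27 log2 units. Over all genes tested the signed difference had a median of 0.0038. In that median, rises and falls cancel, so it is not a size to set beside the first value. A change of at least 1.5-fold was reached by 135 shared genes, 26 higher and 109 lower in collagen, and at least 2-fold by 20, of which 5 were higher and 15 lower. Of all calls in collagen against Matrigel, 753 were higher (3.78% of genes) and 1079 lower (5.41%), so 41.1% of calls and 39.0% of shared genes were higher. These shares were 50.3% and 51.5% after quantile normalization again, and 53.7% and 51.5% after centring on array medians, so the excess of lower genes was not kept under either scaling. Without Matrigel replicate 2, 411 genes were called higher, 610 lower and 561 were shared and lower, and 852 of the 1434 shared genes were kept. Without Matrigel replicate 3, 493 genes were called higher.

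Among genes higher in both collagens, the largest differences were in a cytokine, a surface nucleotidase, a keratin, a plasminogen activator and a collagen receptor. Values are log2 expression per array, and errors of differences are limma's standard errors over 3 arrays per group. Il1a, which encodes the inflammatory cytokine interleukin-1 alpha, measured 9.46, 8.87 and 8.70 in fibrillar collagen, 10.22, 10.003 and 9.90 in non-fibrillar collagen and 8.47, 7.81 and 7.94 in Matrigel. Its replicates were spread widely, and the lowest collagen array still lay above the highest Matrigel array. The difference was 1.45 ± 0.18, or 2.74-fold (adjusted p = 0.0011). Nt5e, the surface enzyme that makes adenosine from AMP, measured 9.99, 9.86 and 9.78 in fibrillar collagen, 10.86, 10.76 and 10.77 in non-fibrillar collagen and 9.28, 9.01 and 9.09 in Matrigel. All non-fibrillar values lay above all fibrillar ones, and the pooled difference was 1.21 ± 0.066, or 2.31-fold (adjusted p = 1.4e-05).

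Krt7, a keratin of simple and ductal epithelium, measured 10.40, 10.34 and 10.36 in fibrillar collagen, 10.68, 10.67 and 10.66 in non-fibrillar collagen and 9.50, 9.42 and 9.48 in Matrigel. The 3 groups were each tight and well apart, and collagen exceeded Matrigel by 1.05 ± 0.033, or 2.07-fold (adjusted p = 5.1e-07). Plau, the urokinase that activates plasminogen, measured 8.94, 8.58 and 8.59 in fibrillar collagen, 9.22, 9.05 and 8.95 in non-fibrillar collagen and 7.92, 7.79 and 7.84 in Matrigel. The groups did not overlap, although fibrillar and non-fibrillar collagen missed the threshold between them (adjusted p = 0.052). The pooled difference was 1.04 ± 0.088, or 2.06-fold (adjusted p = 0.00011). Itga2, the alpha subunit of a main collagen-binding integrin, measured 7.20, 7.20 and 7.15 in fibrillar collagen, 7.89, 7.89 and 7.78 in non-fibrillar collagen and 6.44, 6.59 and 6.48 in Matrigel. Matrigel was lowest, fibrillar collagen intermediate and non-fibrillar collagen highest with no overlap, and the pooled difference was 1.01 ± 0.045, or 2.02-fold (adjusted p = 5.5e-06).

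The next increases in size were in Rgs16, a brake on G protein signalling (0.96 ± 0.053), the matrix glycoprotein tenascin C, Tnc (0.92 ± 0.048), the secreted protease inhibitor-like protein Wfdc2 (0.89 ± 0.037), the hormone erythroferrone, Erfe (0.84 ± 0.051) and the histone gene H2ac4 (0.79 ± 0.058). They were followed by the oxygen-sensing hydroxylase Egln3 (0.76 ± 0.19), the EGF receptor ligand Hbegf (0.73 ± 0.041), the phospholipid scramblase Plscr2 (0.72 ± 0.10), the receptor partner Ramp3 (0.69 ± 0.045) and Zfp57, which maintains imprints (0.67 ± 0.037). Adjusted p lay between 4.5e-06 and 0.031 over these 10 genes. Histone genes are close copies of each other, so H2ac4 is uncertain as a single gene. Egln3 rested on a wide spread (7.38, 7.42 and 7.71 in fibrillar collagen, 7.90, 7.63 and 8.64 in non-fibrillar collagen and 7.14, 6.96 and 6.95 in Matrigel) and lost its call without any 1 fibrillar or Matrigel array, with an adjusted p of up to 0.12. Plscr2 lost it when the 6 collagen arrays were fitted as 1 group. Neither gene passed limma's test for fibrillar collagen alone against Matrigel. Plscr2 differed by 0.38 in fibrillar (adjusted p = 0.12) and 1.06 in non-fibrillar collagen. Egln3 differed by 0.49 (adjusted p = 0.27) and 1.04.

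The largest decreases exceeded the largest increases in size. Mgll, the lipase that splits monoacylglycerol, measured 7.001, 7.29 and 7.58 in fibrillar collagen, 6.37, 6.27 and 7.11 in non-fibrillar collagen and 8.56, 8.94 and 8.80 in Matrigel. Both collagen groups were widely spread and overlapped each other, yet all 6 values stayed below every Matrigel array, with a difference of -1.83 ± 0.19, or 3.55-fold lower (adjusted p = 0.00037). Selenop, the secreted selenium carrier, measured 6.76, 6.85 and 7.12 in fibrillar collagen, 6.82, 6.61 and 7.10 in non-fibrillar collagen and 8.65, 8.76 and 8.65 in Matrigel. The collagen forms overlapped each other throughout, the Matrigel arrays were tight, and the difference was -1.81 ± 0.11, or 3.51-fold lower (adjusted p = 1.7e-05). Parm1, a mucin-like membrane protein of secretory epithelium, measured 6.78, 6.89 and 6.92 in fibrillar collagen, 6.55, 6.49 and 6.38 in non-fibrillar collagen and 8.25, 8.34 and 8.34 in Matrigel. Its groups were ordered without overlap from Matrigel down to non-fibrillar collagen, and the pooled difference was -1.64 ± 0.051, or 3.12-fold lower (adjusted p = 5.1e-07).

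Bace2, a membrane-bound aspartyl protease, measured 5.69, 5.88 and 5.88 in fibrillar collagen, 5.68, 5.49 and 5.40 in non-fibrillar collagen and 6.89, 7.53 and 7.31 in Matrigel, which left a wide gap between the highest collagen and the lowest Matrigel array. Its difference was -1.57 ± 0.12, or 2.98-fold lower (adjusted p = 7.6e-05). Plxdc1, a membrane protein with a plexin domain, was lower by -1.50 ± 0.10 as a difference of collagen minus Matrigel, and the serpin Serpinb9e by -1.47 ± 0.10. After these came the secretory vesicle adaptor Sytl2 (-1.24 ± 0.077), the phospholipid flippase Atp8b1 (-1.20 ± 0.092), the acetylaspartate-splitting enzyme Aspa (-1.15 ± 0.14), the transport ATPase Atp13a4 (-1.10 ± 0.07), the pyruvate dehydrogenase kinase Pdk4 (-1.09 ± 0.12), pyruvate carboxylase, Pcx (-1.09 ± 0.11), Wfdc3 (-1.07 ± 0.11), the lysosomal and melanosomal glycoprotein Gpnmb (-1.03 ± 0.054) and the inositol phosphatase Inpp5j (-1.03 ± 0.084). Pdk4 and Pcx both act on pyruvate, the first by closing its entry as acetyl-CoA and the second by turning it into oxaloacetate. A second, dimmer probe set of Wfdc3 differed by 0.07 ± 0.05, so its probe sets disagree, and with the mean of both Wfdc3 differed by -0.50. Serpinb9e has close copies and is uncertain as a single gene, and Atp8b1 lost its call when the 6 collagen arrays were fitted as 1 group.

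**Figure D1:**
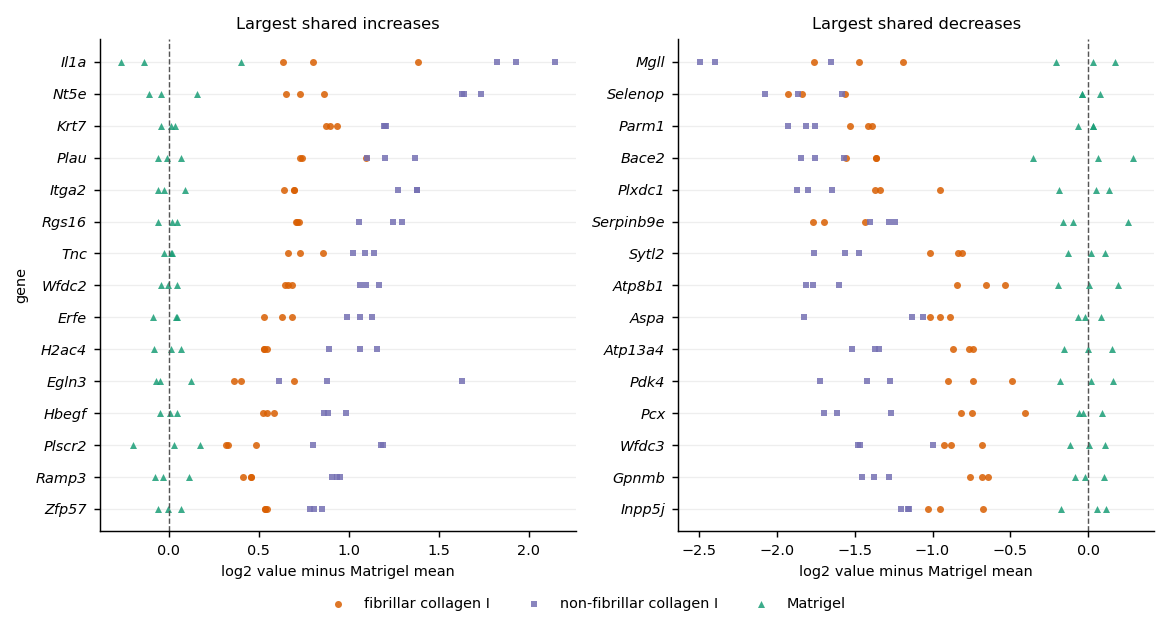
Log2 value of each of the 9 arrays minus the gene's Matrigel mean, for the 15 largest shared increases (left) and the 15 largest shared decreases (right); circles are fibrillar collagen, squares non-fibrillar collagen and triangles Matrigel, and the dashed line is the Matrigel mean. Non-fibrillar arrays lie farthest from Matrigel for most genes, while the collagen forms overlap for Selenop and lie in the other order for Serpinb9e.

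The gene lists were set against a background of 2.8% of all genes shared and higher and 4.39% shared and lower. The largest shares were in lysosome genes on the lower side and cell cycle genes on the higher side. The background holds dim genes too, whereas 1168 of the 1434 shared genes had a mean of at least 7. No share over genes as bright as a list was computed, so part of a list's excess can go with its brightness. The lysosome list had 22 of 40 measured genes lower and 1 higher. Mitosis genes had 17 of 34 higher, and DNA replication genes 13 of 34, with none lower in either list. Shares above 20% were also seen among higher genes for the integrated stress response, hypoxia and glycolysis, immediate early and ERK feedback genes, ribosome biogenesis, cholesterol synthesis and YAP targets. Among lower genes they were seen for glutathione S-transferases, NRF2 targets, lipid handling (uptake, storage and lipolysis), TGF-beta response and Wnt targets. Serpin B genes, cell cycle brakes and the extracellular nucleotide pathway also had such shares on the lower side. None of the 34 oxidative phosphorylation genes and none of the 21 fatty acid synthesis genes was shared. The number that passed for each collagen form on its own was smaller: 9 lysosome genes lower, 11 mitosis and 8 replication genes higher, 5 stress response, 5 ERK and 1 hypoxia gene higher, and 6 NRF2, 6 lipid, 4 TGF-beta, 4 Wnt and 3 glutathione S-transferase genes lower. The lists were chosen with earlier results of these data known, so their counts are descriptions.

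**Figure D2:**
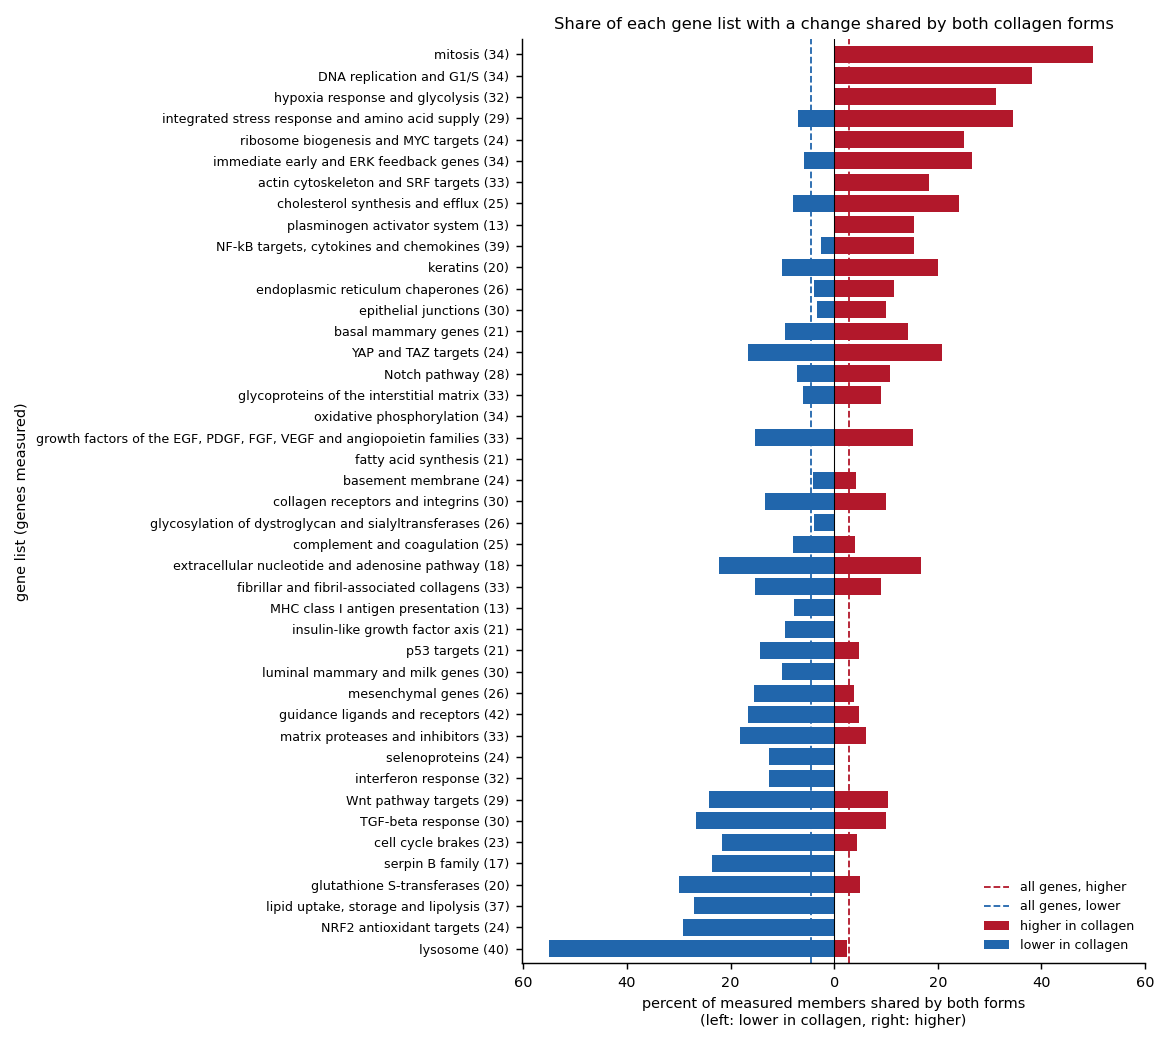
Percent of the measured genes of each of 43 lists that were shared and higher in collagen (bars to the right) or shared and lower (bars to the left), with the number measured in brackets; dashed lines mark 2.8% and 4.39%, the shares over all 19938 genes. The lysosome list reaches 55% on the lower side and the mitosis list 50% on the higher side.

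Lysosomes digest material taken up or recycled by the cell, with acid hydrolases that work at the low pH set by a proton pump, and many of their genes carry a CLEAR element, the site read by the TFEB and TFE3 family. The letters TCACGTGA, which read the same on both strands, were searched in the 250 bases before each gene's start. They were found in 1.08% of 19177 promoters of all genes tested, in 13.5% of 37 promoters of the lysosome list, in 18.2% of 22 promoters of its shared members and in 2.2% of 909 promoters of all genes shared and lower. The stretches of the 4 shared members that hold them are printed because these genes fell together. They come from RefSeq promoters (GRCm38.p6), written on the gene's strand with the element in capitals, and a match is a description, not a bound site. They belong to the hydrolase Gla (chrX:134601153-134601240, minus strand), the calcium channel Mcoln1 (chr8:3500433-3500518, plus strand), the proton pump subunit Atp6v1a (chr16:44139344-44139431, minus strand) and cathepsin D, Ctsd (chr7:142387879-142387966, minus strand).
Gla: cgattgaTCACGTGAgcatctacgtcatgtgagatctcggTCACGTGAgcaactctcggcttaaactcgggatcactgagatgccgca
Mcoln1: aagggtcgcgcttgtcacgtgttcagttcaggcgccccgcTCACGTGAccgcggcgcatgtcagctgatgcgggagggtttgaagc
Atp6v1a: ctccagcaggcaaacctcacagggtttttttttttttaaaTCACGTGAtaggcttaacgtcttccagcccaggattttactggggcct
Ctsd: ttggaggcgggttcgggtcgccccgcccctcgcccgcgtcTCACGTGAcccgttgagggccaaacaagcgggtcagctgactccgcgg

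Gla, the alpha-galactosidase that trims glycolipids, measured 10.47, 10.49 and 10.55 in fibrillar collagen, 10.07, 10.16 and 10.25 in non-fibrillar collagen and 10.89, 10.99 and 10.86 in Matrigel. Every fibrillar value lay between the non-fibrillar and the Matrigel values, and the difference was -0.58 ± 0.049, or 1.5-fold lower (adjusted p = 0.00011). Mcoln1, which releases calcium from lysosomes, measured 10.25, 10.25 and 10.38 in fibrillar collagen, 10.11, 10.10 and 10.22 in non-fibrillar collagen and 10.46, 10.59 and 10.53 in Matrigel, a difference of -0.31 ± 0.048 (adjusted p = 0.0037). Atp6v1a differed by -0.31 ± 0.051 and Ctsd, a major lysosomal protease, by -0.17 ± 0.036.

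Lipa, the acid lipase that frees cholesterol and fatty acids from lipoproteins, measured 11.51, 11.51 and 11.55 in fibrillar collagen, 10.92, 10.81 and 10.95 in non-fibrillar collagen and 11.93, 12.06 and 12.04 in Matrigel. It was 1.74-fold lower (-0.80 ± 0.044, adjusted p = 1.4e-05), with the groups ordered without overlap. Gpnmb measured 8.08, 8.15 and 8.19 in fibrillar collagen, 7.46, 7.38 and 7.56 in non-fibrillar collagen and 8.75, 8.94 and 8.82 in Matrigel. Cd68, a lysosomal membrane glycoprotein, measured 8.34, 8.39 and 8.63 in fibrillar collagen, 7.62, 7.56 and 7.67 in non-fibrillar collagen and 8.87, 9.05 and 9.07 in Matrigel. Against Matrigel, Gpnmb differed by -0.69 in fibrillar and -1.37 in non-fibrillar collagen, and Cd68 by -0.55 and -1.38.

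The other shared hydrolases and their partners were Hexa (-0.44 ± 0.047), Npc2, which binds cholesterol (-0.45 ± 0.057), cathepsin F, Ctsf (-0.43 ± 0.061), Man2b1 (-0.34 ± 0.069), Neu1 (-0.26 ± 0.034), Psap (-0.26 ± 0.048), Ctsb (-0.19 ± 0.036) and Smpd1 (-0.19 ± 0.037). The proton pump subunits Atp6v0d1 (-0.28 ± 0.036), Tcirg1 (-0.28 ± 0.041), Atp6v0d2 (-0.26 ± 0.042) and Atp6v1h (-0.16 ± 0.039) and the membrane proteins Lamp1 (-0.16 ± 0.031), Lamp2 (-0.15 ± 0.038) and Scarb2 (-0.20 ± 0.05) fell too. Cathepsin H, Ctsh, was the member that was higher (0.25 ± 0.038, adjusted p = 0.0033). The median difference over the 40 genes was -0.20, with 35 of them below 0. The list's mean per array ran from 9.54 to 9.60 in fibrillar collagen, 9.37 to 9.42 in non-fibrillar collagen and 9.67 to 9.75 in Matrigel, so the groups did not overlap. Non-fibrillar collagen was the farther from Matrigel for all 23 shared members, and the forms differed from each other for 11.

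Of the 22 lower lysosome genes, 9 passed in both single comparisons with Matrigel. With the 6 collagen arrays fitted as 1 group, 12 lysosome genes were shared and lower, and 15 after centring. Without Matrigel replicate 2 the count was 15, as the calls of Atp6v1h, Ctsd, Lamp1, Lamp2, Man2b1, Psap and Scarb2 ended. Cd68 is also used as a macrophage marker. It was the only 1 of 18 measured macrophage markers that was shared, and its defining partners Adgre1 (3.82 to 4.09 over all arrays) and Csf1r (4.72 to 4.84) were dim. The mean of the 18 ran from 5.12 to 5.16 in fibrillar collagen, 5.08 to 5.11 in non-fibrillar collagen and 5.11 to 5.18 in Matrigel, and its part in the result was not tested.

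Genes of cell division were higher in both collagens. All 34 mitosis genes had a difference above 0, with a median of 0.27. Kif2c, a kinesin that dismantles microtubules at centromeres, measured 8.28, 8.24 and 8.25 in fibrillar collagen, 8.36, 8.496 and 8.43 in non-fibrillar collagen and 7.88, 7.90 and 7.86 in Matrigel. Its Matrigel values were tight and every collagen array lay above them, a difference of 0.46 ± 0.038, or 1.38-fold (adjusted p = 0.0001). Top2a, the topoisomerase that untangles replicated DNA, measured 9.96, 9.93 and 9.92 in fibrillar collagen, 10.10, 10.11 and 9.97 in non-fibrillar collagen and 9.64, 9.63 and 9.62 in Matrigel, or 0.37 ± 0.04 higher (adjusted p = 0.00051). A second, dimmer probe set of Top2a differed by 0.11 ± 0.12, and the mean of both by 0.24 (adjusted p = 0.040). The mitotic kinase Aurka differed by 0.40 ± 0.053, the condensin subunit Ncapg by 0.39 ± 0.05, the checkpoint kinase Bub1b by 0.39 ± 0.064, Aurkb by 0.30 ± 0.039, the kinesin Kif20a by 0.31 ± 0.036, the kinase Plk1 by 0.27 ± 0.05 and the mitotic kinase Cdk1 by 0.28 ± 0.047. Dlgap5, Anln, Pttg1, Ccna2, Prc1, Kif23, Kif11 and Ttk were shared as well, with differences from 0.24 to 0.36. Kif23, Kif11 and Ttk lost their calls without Matrigel replicate 2 or 3, and Kif11 and Ttk also without some collagen arrays.

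Mitotic genes are often switched through a cell cycle homology region, whose letters are TTTGAA. On either strand these were found in 13.4% of promoters of all genes, in 36.7% of 30 promoters of the mitosis list, in 42.9% of 14 promoters of its shared members and in 13.1% of 567 promoters of all genes shared and higher. The stretches of Kif2c (chr4:117178828-117178915, minus strand) and Top2a (chr11:99024190-99024252, minus strand), the members with the smallest p, are printed on the gene's strand from RefSeq (GRCm38.p6). The capitals show the match, here as the reverse complement.
Kif2c: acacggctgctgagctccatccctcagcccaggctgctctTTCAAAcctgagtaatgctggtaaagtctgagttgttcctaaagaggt
Top2a: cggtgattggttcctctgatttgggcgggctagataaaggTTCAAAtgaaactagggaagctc

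Among DNA replication and G1/S genes the median difference was 0.25, with 32 of 34 above 0. By form the median was 0.13 in fibrillar and 0.34 in non-fibrillar collagen. Rrm1, the large subunit of the enzyme that makes deoxynucleotides, measured 10.62, 10.57 and 10.55 in fibrillar collagen, 10.73, 10.79 and 10.77 in non-fibrillar collagen and 10.26, 10.28 and 10.32 in Matrigel. Collagen values were all above Matrigel by a difference of 0.39 ± 0.035 (adjusted p = 0.00018). The helicase subunits Mcm6 (0.41 ± 0.053), Mcm7 (0.33 ± 0.041), Mcm4 (0.29 ± 0.057) and Mcm2 (0.28 ± 0.041), the helicase partner Cdc45 (0.32 ± 0.038) and the loader Cdc6 (0.41 ± 0.057) were all shared and higher, as were Tk1, Uhrf1, Pole, Chaf1a, Rfc5 and Ccne1. Calls ended without Matrigel replicate 2 for Ccne1 and Mcm4, without replicate 3 for Mcm4 and Chaf1a, and without replicate 1 for Chaf1a. Ribosome biogenesis and MYC target genes had 6 of 24 shared and higher, among them the transferrin receptor Tfrc (0.31 ± 0.034) and the growth regulator Pa2g4 (0.25 ± 0.04), with a median of 0.12.

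Of 23 cell cycle brakes, 5 were shared and lower and 1 higher. Gadd45a, a stress-induced inhibitor of the cycle, measured 8.28, 8.15 and 8.19 in fibrillar collagen, 8.09, 7.93 and 8.03 in non-fibrillar collagen and 8.86, 8.95 and 8.77 in Matrigel, or 1.68-fold lower (-0.75 ± 0.053, adjusted p = 4.5e-05). The growth arrest gene Gas1 (-0.52 ± 0.07), Gadd45g (-0.44 ± 0.071), the transcription factor Foxo1 (-0.31 ± 0.039) and the retinoblastoma gene Rb1 (-0.28 ± 0.036) also fell. The Rb1 relative Rbl1 rose (0.26 ± 0.045). The list's median was -0.0076, and its sign turned after quantile normalization again (0.0058) and after centring (0.017).

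**Figure D3:**
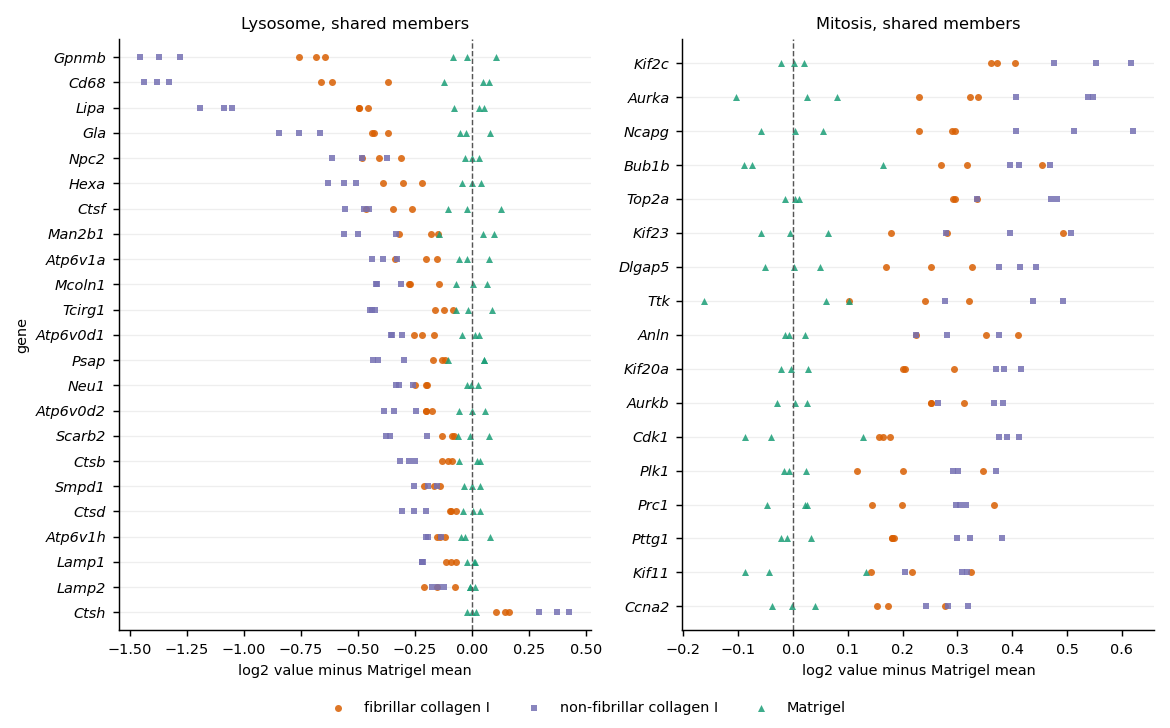
Log2 value of each array minus the gene's Matrigel mean for the 23 shared lysosome genes (left) and the 17 shared mitosis genes (right); circles are fibrillar collagen, squares non-fibrillar collagen, triangles Matrigel, and the x axes differ in range. All lysosome genes but Ctsh lie left of Matrigel, with the non-fibrillar arrays farthest for Gpnmb, Cd68 and Lipa, and all mitosis genes lie to the right.

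Of 37 genes of lipid uptake, storage and lipolysis, 10 were shared and lower in collagen and none higher (median -0.080). They include genes that store lipid and genes that break it down. Besides Mgll, these were the fatty acid carriers Fabp4 and Fabp5, lipoprotein lipase, Lpl, and the lipid droplet genes Abhd5, Plin4 and Pnpla2. The others were the triglyceride-making Dgat1, the fatty acid importer Slc27a1 and Pnpla8. Fabp4 measured 5.57, 5.35 and 5.62 in fibrillar collagen, 5.23, 5.33 and 5.35 in non-fibrillar collagen and 6.31, 6.20 and 6.47 in Matrigel. All collagen arrays lay well below all Matrigel arrays, while the collagen forms all but touched each other, with a pooled difference of -0.92 ± 0.072 (adjusted p = 7.6e-05). Lpl measured 9.35, 9.30 and 9.33 in fibrillar collagen, 8.89, 8.91 and 9.07 in non-fibrillar collagen and 9.74, 9.70 and 9.64 in Matrigel, with fibrillar collagen intermediate, and differed by -0.55 ± 0.047 (adjusted p = 0.00012). Fabp5 differed by -0.65 ± 0.092, Plin4, which coats lipid droplets, by -0.65 ± 0.095, Dgat1 by -0.47 ± 0.07 and Abhd5, which activates droplet lipolysis, by -0.42 ± 0.037. With the 6 collagen arrays fitted as 1 group, 6 lipid genes were shared and lower. Pnpla8 lost its call in 11 of 19 alternatives, including each Matrigel array left out.

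Nr1h3, the liver X receptor alpha, measured 8.97, 9.04 and 9.30 in fibrillar collagen, 8.55, 8.73 and 8.95 in non-fibrillar collagen and 9.62, 9.73 and 9.77 in Matrigel, or -0.79 ± 0.093 (adjusted p = 0.00085), and Pparg, the receptor that drives fat storage, differed by -0.36 ± 0.06 (adjusted p = 0.0048). Fabp4, Lpl and Pparg are also adipocyte markers and were the 3 shared genes among 10 such markers. The mean of the 10 ran from 6.34 to 6.44 in fibrillar collagen, 6.28 to 6.31 in non-fibrillar collagen and 6.52 to 6.56 in Matrigel, and its part in the result was not tested. The defining markers Adipoq (3.99 to 4.11 over all arrays) and Lep (4.40 to 4.78) were dim and did not pass the test.

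Enzymes that make fatty acids were not among the shared genes. Fasn differed from Matrigel by 0.38 in fibrillar and -0.10 in non-fibrillar collagen. In the list of cholesterol synthesis and efflux, 6 of 25 genes were shared and higher, all in the synthesis pathway: Pmvk (0.34 ± 0.041), Msmo1 (0.29 ± 0.037), Fdps (0.18 ± 0.041), Idi1 (0.18 ± 0.04), Nsdhl (0.17 ± 0.041) and Fdft1 (0.15 ± 0.031). The 2 shared and lower were Nr1h3 and its target Mylip, which targets the LDL receptor for breakdown (-0.52 ± 0.058). Fdps, Idi1, Fdft1 and Nsdhl lost their calls without Matrigel replicate 2.

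Detoxifying genes were lower. Of 24 targets of NRF2, the transcription factor of the antioxidant response, 7 were shared and lower and none higher (median -0.075). Hmox1, which breaks down haem, measured 10.41, 10.34 and 10.47 in fibrillar collagen, 9.87, 9.95 and 10.10 in non-fibrillar collagen and 10.93, 11.09 and 10.95 in Matrigel. Its groups were ordered without overlap, and collagen was 1.75-fold lower (-0.80 ± 0.059, adjusted p = 5.3e-05). Ephx1, an epoxide hydrolase, measured 8.15, 8.17 and 8.31 in fibrillar collagen, 7.62, 7.53 and 7.74 in non-fibrillar collagen and 8.58, 8.59 and 8.72 in Matrigel, in the same order (-0.71 ± 0.059, adjusted p = 0.00011). The aldehyde dehydrogenase Aldh3a1 (-0.49 ± 0.067), the cystine importer Slc7a11 (-0.42 ± 0.049), the glutathione-making subunit Gclm (-0.25 ± 0.038), the ferritin chain Ftl1 (-0.22 ± 0.036) and Srxn1 (-0.19 ± 0.044) completed the set. Srxn1 lost its call without Matrigel replicate 1 or 2 or non-fibrillar replicate 2.

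Glutathione S-transferases, which couple glutathione to toxins, had 6 of 20 shared and lower and 1 higher. Gstm1 averaged 9.90 ± 0.14 in fibrillar collagen, 9.41 ± 0.15 in non-fibrillar collagen and 10.50 ± 0.17 in Matrigel (SD, n = 3), with no overlap between groups and a difference of -0.84 ± 0.09 (adjusted p = 0.00047). Gstm3 (-0.54 ± 0.085), Gstt1 (-0.53 ± 0.10), Mgst1 (-0.49 ± 0.089), Gstt3 (-0.34 ± 0.078) and Gsta4 (-0.18 ± 0.036) were lower and Gsto2 higher (0.31 ± 0.049). A second probe set of Gstm3 differed by -0.25 ± 0.12. Some members of this family, such as the Gstm genes, are close copies of each other, so those are uncertain as single genes. Gstt3 and Gsta4 lost their calls without Matrigel replicate 2 or 3. Of 24 selenoproteins, 3 were shared and lower, Selenop, the thyroid hormone-activating deiodinase Dio2 (-0.84 ± 0.073) and Selenom (-0.42 ± 0.045). The list's median was -0.021 and did not keep its sign under the other scalings.

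Genes of the hypoxia response and glycolysis were higher, 10 of 32 with none lower. The list's median was 0.21, with 0.11 in fibrillar and 0.28 in non-fibrillar collagen. Of the 10 shared genes, 1 passed in both single comparisons of a collagen form with Matrigel. Pfkl, a phosphofructokinase of glycolysis, measured 10.77, 10.64 and 10.75 in fibrillar collagen, 10.92, 10.68 and 10.91 in non-fibrillar collagen and 10.42, 10.43 and 10.43 in Matrigel. Its 6 collagen values lay above the closely spaced Matrigel values, a difference of 0.35 ± 0.057 (adjusted p = 0.0041). The lactate exporter Slc16a3 measured 10.44, 10.19 and 10.43 in fibrillar collagen, 10.74, 10.41 and 10.78 in non-fibrillar collagen and 10.08, 9.88 and 9.91 in Matrigel, or 0.54 ± 0.092, and the glucose importer Slc2a1 differed by 0.47 ± 0.084. Car9, a carbonic anhydrase of hypoxic cells, differed by 0.67 ± 0.15, and Egln3, P4ha2, P4ha1, Pdk1, Egln1 and Ldha were shared with differences from 0.14 to 0.76. Non-fibrillar replicate 3 was the highest array for Car9, at 9.36, and for Egln3, at 8.64. The counts were 3 of 32 without Matrigel replicate 2 and 3 of 32 with the 6 collagen arrays fitted as 1 group. The calls of Car9, Egln3, P4ha2, P4ha1, Pdk1, Egln1 and Ldha ended in both cases. Pfkl, Slc16a3 and Slc2a1 kept their calls in all 19 alternatives.

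Genes of amino acid supply were higher as well. Of 29 genes of the integrated stress response, the programme led by ATF4, 10 were shared and higher and 2 lower (median 0.15). Asns, the asparagine synthetase, measured 10.93, 10.90 and 10.91 in fibrillar collagen, 10.98, 10.91 and 10.99 in non-fibrillar collagen and 10.54, 10.57 and 10.59 in Matrigel. The collagen forms overlapped each other, above all Matrigel arrays (0.37 ± 0.034, adjusted p = 0.00018). Cth (0.59 ± 0.06) and Cbs (0.31 ± 0.051), which make cysteine, the one-carbon enzymes Mthfd2 (0.40 ± 0.055) and Shmt2 (0.34 ± 0.051), the glycyl-tRNA synthetase Gars (0.27 ± 0.039), the glutamine importer Slc1a5 (0.33 ± 0.052) and the stress gene Nupr1 (0.40 ± 0.068) were higher, with Psat1 and Stc2. The lower members were the transporters Slc7a11 and Slc1a4 (-0.42 ± 0.054). Psat1 and Stc2 lost their calls without Matrigel replicate 2, and Stc2 also without 6 other arrays.

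**Figure D4:**
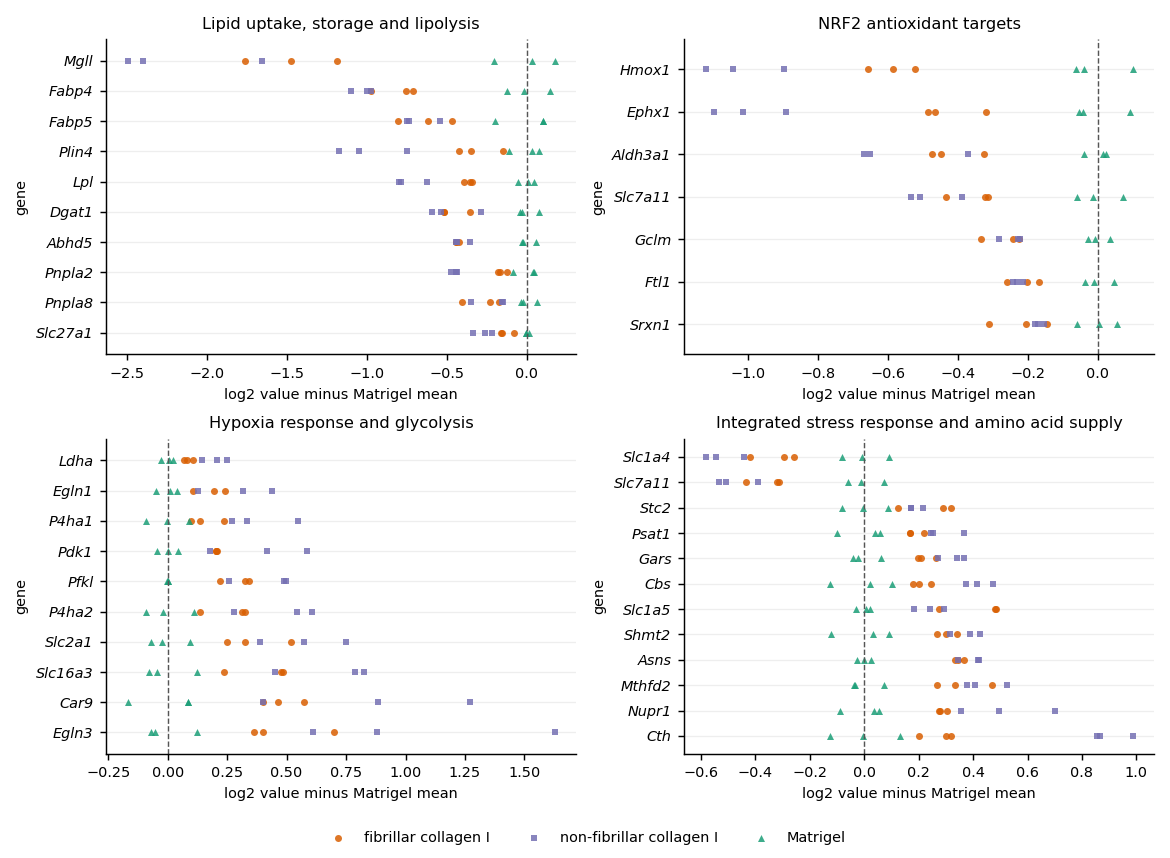
Log2 value of each array minus the gene's Matrigel mean for the shared genes of 4 lists: lipid handling (10 genes), NRF2 targets (7), hypoxia and glycolysis (10) and the integrated stress response (12); circles are fibrillar collagen, squares non-fibrillar collagen, triangles Matrigel, and the x axes differ in range. Lipid and NRF2 genes lie left of Matrigel, hypoxia genes right, and Slc1a4 and Slc7a11 are the lower members of the stress response list.

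Receptors for matrix changed in both directions. Of 30 collagen receptors and integrins, 3 were shared and higher and 4 lower. With Itga2, the laminin-binding alpha subunits Itga3 and Itga6 were higher. Itga3 measured 10.19, 10.05 and 10.10 in fibrillar collagen, 10.10, 10.11 and 10.0002 in non-fibrillar collagen and 9.61, 9.65 and 9.70 in Matrigel, with the collagen forms overlapping, or 0.44 ± 0.044 (adjusted p = 0.00034), and Itga6 differed by 0.28 ± 0.06. Itga1, which like Itga2 is an alpha subunit of a collagen-binding integrin, was lower: it measured 5.67, 5.49 and 5.49 in fibrillar collagen, 5.28, 5.35 and 5.15 in non-fibrillar collagen and 5.91, 5.72 and 5.72 in Matrigel, or -0.38 ± 0.065 (adjusted p = 0.0059). The syndecans Sdc3 (-0.60 ± 0.036) and Sdc1 (-0.29 ± 0.036), surface proteoglycans that bind matrix, and the integrin subunit Itgb8 (-0.46 ± 0.079) were lower. Itga6 lost its call without Matrigel replicate 1 or 2.

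Genes for matrix itself were mixed. Of 33 collagen genes and collagen-modifying enzymes, 5 were shared and lower: Col12a1 (-0.59 ± 0.066), the type VI chains Col6a2 (-0.56 ± 0.048) and Col6a1 (-0.50 ± 0.05), Col5a3 (-0.32 ± 0.035) and the cross-linking enzyme Loxl3 (-0.26 ± 0.059). Higher were Col8a1 (0.42 ± 0.049) and the prolyl hydroxylases P4ha2 and P4ha1, which stabilise collagen and are also hypoxia genes. Col1a1, a chain of collagen I named after its values were seen, did not pass the test (8.55 to 8.73 over all arrays). Of 24 basement membrane genes, the laminin chain Lamb1 was higher (0.21 ± 0.045) and Sparc lower (-0.14 ± 0.038), shares near the background. Among 33 other matrix glycoproteins, Tnc, Ccn2 (0.57 ± 0.094) and Thbs1 (0.28 ± 0.06) were higher and Matn2 (-0.66 ± 0.081) and Ccn5 (-0.42 ± 0.058) lower. Lamb1, Sparc, Loxl3, P4ha2 and P4ha1 lost their calls without Matrigel replicate 2, and Thbs1 without replicate 1 or 3.

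Urokinase and its receptor were higher together. Plaur, the surface receptor that holds urokinase, measured 10.88, 10.75 and 10.72 in fibrillar collagen, 10.73, 10.83 and 10.68 in non-fibrillar collagen and 10.37, 10.25 and 10.14 in Matrigel, with the collagen forms overlapping, or 0.52 ± 0.06 (adjusted p = 0.00074). These were the 2 shared genes of 13 in the plasminogen activator system. Of 33 matrix proteases and inhibitors, 6 were lower, led by Bace2: the metalloproteinases Mmp13 (-0.61 ± 0.11), Mmp19 (-0.57 ± 0.10) and Mmp11 (-0.40 ± 0.053), Bace1 (-0.31 ± 0.041) and Adam15 (-0.15 ± 0.034). The inhibitor Timp1 (0.36 ± 0.034) and the protease Adam8 (0.19 ± 0.04) were higher. Adam15 and Adam8 lost their calls without Matrigel replicate 2 or 3.

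Growth signalling genes were higher in part. Of 34 immediate early and ERK feedback genes, 9 were higher and 2 lower (median 0.080). Ccnd1, the cyclin that carries growth signals into the cell cycle, measured 11.94, 11.94 and 12.03 in fibrillar collagen, 12.08, 11.96 and 12.10 in non-fibrillar collagen and 11.49, 11.53 and 11.54 in Matrigel. Collagen was 1.4-fold higher (0.49 ± 0.043, adjusted p = 0.00013) and its forms overlapped. The ERK-driven transcription factor Etv5 measured 8.60, 8.56 and 8.66 in fibrillar collagen, 8.56, 8.55 and 8.53 in non-fibrillar collagen and 8.16, 8.09 and 8.201 in Matrigel, or 0.43 ± 0.038 (adjusted p = 0.00018). The EGF receptor inhibitor Errfi1 (0.56 ± 0.056) and Ier3, Ier2, Emp1, Etv4, Spry2 and Spred3 were higher, with differences from 0.21 to 0.34 for the last 6, and the phosphatase Dusp4 (-0.44 ± 0.05) and Fosl2 (-0.37 ± 0.054) were lower. Etv4 lost its call without Matrigel replicate 2, Spry2 without replicate 3 and Spred3 without replicate 1.

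Among 33 growth factors, 5 were higher and 5 lower. Higher were the EGF family ligands Hbegf and Nrg1 (0.34 ± 0.048) and the PDGF ligands Pdgfb (0.34 ± 0.063), Pdgfd (0.37 ± 0.085) and Pdgfa (0.22 ± 0.047). Lower were the angiopoietins Angpt1 (-0.91 ± 0.11), Angpt4 (-0.64 ± 0.079) and Angpt2 (-0.16 ± 0.042), Angptl4 (-0.27 ± 0.055) and Igf1 (-0.24 ± 0.045). Angpt1 measured 4.52, 4.43 and 4.63 in fibrillar collagen, 4.46, 4.93 and 4.72 in non-fibrillar collagen and 5.73, 5.31 and 5.53 in Matrigel, with the collagen forms overlapping below Matrigel. All these Angpt1 values lay below the array medians (5.98 to 6.05), so the gene was dim. Pdgfd, Pdgfa, Angpt2, Angptl4 and Igf1 lost their calls without Matrigel replicate 2. Angpt2 lost its call in 12 of 18 alternatives, among them both other scalings and 8 single arrays left out. Pdgfd lost its call in 6 of 17. Pdgfra, the receptor for PDGF, was lower: it measured 10.81, 10.94 and 10.999 in fibrillar collagen, 10.16, 10.12 and 10.44 in non-fibrillar collagen and 11.11, 11.36 and 11.28 in Matrigel, or -0.67 ± 0.081 (adjusted p = 0.00094).

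Of 39 cytokines, chemokines and NF-kB targets, 6 were higher and 1 lower. With Il1a these were the chemokines Cxcl16 (0.63 ± 0.065) and Cx3cl1 (0.42 ± 0.045), the granulocyte factor Csf3 (0.57 ± 0.084), the NF-kB inhibitor Nfkbie (0.39 ± 0.074) and Nfkb2 (0.20 ± 0.05), while the chemokine Ccl7 fell (-0.50 ± 0.075). Nfkb2 lost its call without any 1 Matrigel array. Of 33 actin and SRF target genes, 6 were higher and none lower, from 0.15 in the actin cross-linker Actn1 to 0.32 in calponin, Cnn2. Actn1 lost its call without any 1 Matrigel array, and Tpm4 without replicate 2.

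YAP and TAZ, coactivators that respond to stiffness, had 5 of 24 targets higher and 4 lower. Ankrd1 differed from Matrigel by 0.13 in fibrillar and 0.85 in non-fibrillar collagen, and Ccn2 by 0.28 and 0.87. Both lost the pooled call when the 6 collagen arrays were fitted as 1 group. The lower targets included the ligand Tgfb2 (-0.66 ± 0.057) and Foxf2 (-0.49 ± 0.056), besides Gadd45a and Fjx1.

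Of 30 TGF-beta response genes, 8 were lower and 3 higher. These counts were 7 and 4 after quantile normalization again and 6 and 5 after centring, and the difference between them was not tested. The inhibitors of differentiation Id2 (-0.42 ± 0.04) and Id3 (-0.56 ± 0.075), Ltbp2 (-0.69 ± 0.052) and the activin subunit Inhba (-0.41 ± 0.052) fell. The inhibitory Smad7 (-0.27 ± 0.054) and Smad6 (-0.37 ± 0.10), Tgfb2 and the receptor Tgfbr2 fell too. Id2 measured 11.97, 11.96 and 11.94 in fibrillar collagen, 11.72, 11.85 and 11.76 in non-fibrillar collagen and 12.24, 12.28 and 12.33 in Matrigel (adjusted p = 0.00027), with every collagen value below every Matrigel value. Smad3 (0.36 ± 0.043), the activin inhibitor follistatin, Fst (0.59 ± 0.10) and Ltbp1 (0.33 ± 0.071) rose. Wnt targets had 7 of 29 lower and 3 higher. The Wnt list's median was 0.020, with 16 genes above 0, so the list as a whole did not fall. The Wnt inhibitor Apcdd1 measured 7.55, 7.56 and 7.74 in fibrillar collagen, 7.48, 7.36 and 7.52 in non-fibrillar collagen and 8.37, 8.62 and 8.52 in Matrigel, or 1.96-fold lower (adjusted p = 4e-05). Notum (-0.71 ± 0.074), Axin2 (-0.56 ± 0.08) and Lgr4 (-0.37 ± 0.05) fell as well, with Fzd7, Tcf7l1 and Tcf7l2, while Lgr6 (0.45 ± 0.05), Ccnd1 and Dkk3 rose. Without Matrigel replicate 2 the calls of Smad6, Smad7, Tgfbr2, Tcf7l1 and Fzd7 ended, and 5 TGF-beta and 5 Wnt genes were shared and lower. With the 6 collagen arrays fitted as 1 group, 4 TGF-beta genes were. Ltbp1 lost its call without Matrigel replicate 3.

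Markers of epithelial type moved in both directions. Of 20 keratins, Krt7, Krt18 (0.25 ± 0.035), Krt80 (0.27 ± 0.048) and Krt13 (0.31 ± 0.075) were higher, and Krt6a (-0.78 ± 0.045) and the basal keratin Krt14 (-0.24 ± 0.034) lower. Krt6a, a keratin of stressed and progenitor epithelium, measured 7.50, 7.47 and 7.47 in fibrillar collagen, 7.60, 7.72 and 7.79 in non-fibrillar collagen and 8.34, 8.35 and 8.42 in Matrigel (adjusted p = 1.5e-05), with non-fibrillar collagen nearer to Matrigel. Of 30 luminal and milk genes, 3 were lower and none higher, Parm1, the milk fat enzyme Xdh (-0.74 ± 0.075) and the prolactin-activated factor Stat5a (-0.41 ± 0.05). Of 26 mesenchymal genes, the repressors Snai2 (-0.37 ± 0.044) and Zeb2 (-0.32 ± 0.054), Pdgfra and Sparc were lower and Wnt5a higher (0.23 ± 0.058). Pdgfra is also the only 1 of 14 measured fibroblast markers that was shared, and the mean of the 14 ran from 5.92 to 5.98 in fibrillar collagen, 5.83 to 5.93 in non-fibrillar collagen and 5.93 to 6.03 in Matrigel. Its part in the result was not tested. Basal mammary genes had 3 higher and 2 lower of 21. Of 30 junction genes, the claudins Cldn1 (0.48 ± 0.071) and Cldn12 and Epcam (0.22 ± 0.044) were higher, and the desmosomal Perp lower (-0.61 ± 0.057). Krt13, Cldn12, Epcam and Wnt5a lost their calls without Matrigel replicate 2. For Epcam this was the only 1 of the 9 arrays whose omission ended the call. Omission of single arrays ended it for 8 arrays in Cldn12, 7 in Wnt5a and 5 in Krt13.

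Both forms moved the shared genes the same way by construction, but not equally far. Fibrillar and non-fibrillar collagen were each compared with the same Matrigel arrays, so the comparisons are given side by side. At the threshold, fibrillar collagen against Matrigel gave 289 genes higher (1.45%) and 473 lower (2.37%), 3.82% together, and non-fibrillar collagen 1345 higher (6.75%) and 1410 lower (7.07%), 13.8% together. The first pair of counts fell by more than 1.5 times when single arrays were left out. Fibrillar collagen then had 134 genes higher without Matrigel replicate 2, 146 without fibrillar replicate 1, 168 without fibrillar replicate 3, 175 without Matrigel replicate 3 and 178 without fibrillar replicate 2. It had 219 lower without Matrigel replicate 2, 241, 288 and 294 without fibrillar replicates 2, 1 and 3, and 308 and 313 without Matrigel replicates 1 and 3. Non-fibrillar collagen had 823 genes higher without Matrigel replicate 2. Of the shared genes, 532 passed in both of these comparisons, 756 only with non-fibrillar collagen, 66 only with fibrillar collagen and 80 in neither. Passing in 1 comparison and not in the other is no test of a difference between the forms.

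That difference was tested directly, as fibrillar against non-fibrillar collagen, in a contrast that does not use the Matrigel means. It passed for 349 shared genes (24.3%). Among all genes it passed for 8.85%, of which 3.52% were higher and 5.33% lower in fibrillar collagen. Shared genes were picked in the same fit with the same spread estimates, which favours genes of small spread that pass any contrast. The higher share among them is therefore no result about shared genes. Non-fibrillar collagen was the farther from Matrigel for 330 of these 349 and fibrillar collagen for 19. Over all shared genes the non-fibrillar mean was farther for 1137 (79.3%), and the median size of the difference from Matrigel was 0.22 in fibrillar and 0.32 in non-fibrillar collagen. Leaving out 1 array gave between 212 and 487 genes with non-fibrillar collagen farther, and between 9 and 23 with fibrillar collagen farther, both lowest without non-fibrillar replicate 2.

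**Figure D5:**
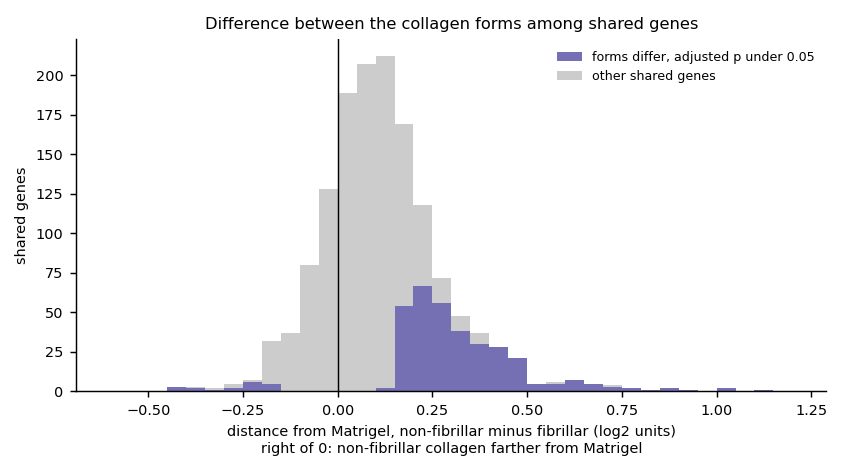
Histogram over the 1434 shared genes of how much farther the non-fibrillar mean lay from the Matrigel mean than the fibrillar mean did, in log2 units, in bins of 0.05; coloured bars are the 349 genes with an adjusted p below 0.05 between the forms. Most genes lie right of 0, where non-fibrillar collagen is farther, and 330 of the coloured genes lie there.

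Selenop was among the genes with no detected difference between the forms (0.064 ± 0.12 as fibrillar minus non-fibrillar, adjusted p = 0.82). In Bace2 (0.30 ± 0.14), Serpinb9e (-0.33 ± 0.12) and Inpp5j (0.29 ± 0.10) the forms also missed the threshold. Atp8b1 (1.05 ± 0.11, adjusted p = 0.00085), Il1a (-1.03 ± 0.21, adjusted p = 0.016) and Nt5e (-0.92 ± 0.077, adjusted p = 0.00054) had the largest differences between forms among the 30 genes first described. Examples with fibrillar collagen farther were Col8a1 (0.61 in fibrillar and 0.23 in non-fibrillar collagen), Selenom (-0.57 and -0.27), Serpinb9 (-0.54 and -0.17), Krt6a (-0.89 and -0.67) and Sdc1 (-0.41 and -0.16).

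The limit of the shared set lay between close values. Nectin1, an adhesion molecule, was just inside, with its highest collagen value 0.00019 below its lowest Matrigel value and a difference of -0.28. Vash2, just outside, had its highest collagen value equal to its lowest Matrigel value, with a difference of -0.23.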

How the data were processed

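RNA of D2.OR cells was measured on 9 Affymetrix arrays in 3 groups of 3. Each probe set has a log2 value that the authors deposited. The submitters' processing notes name Affymetrix Power Tools and the RMA method for making it. RMA subtracts background, equalises array distributions and summarises probes, so a change in most genes can be hidden. For the software, versions and settings were not given in the sources used here, nor whether 1 run held all arrays. Groups come from the sample titles.

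Of 35512 probe sets, 21789 had 1 gene symbol in the platform annotation, 1621 several and 12102 none listed. Only the first kind was tested. The 999 genes with several probe sets took the one with the highest mean, which left 19938 genes with no filter on dim values. One limma 3.58.1 fit in R 4.3.3 (lmFit, eBayes, 6 residual degrees of freedom) over all 9 arrays gave every contrast. Tests were two-sided, p-values were adjusted over all genes by Benjamini-Hochberg, and folds are back-transformed log2 differences. The scripts were tested on simulated data.

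The genes described, the 49 gene lists (1273 of 1362 entries measured) and the tests were chosen with earlier results of these data known. No set test was run. Named genes are the 15 largest shared differences each way, skipping predicted models, the shared members of a list and up to 4 of its other members with the smallest p. Markers of cell types, Col1a1, Nectin1, Vash2, Irf7 and Usp18 are named outside this rule. Promoters came from RefSeq (GRCm38.p6) and reach 250 bases before the start. The alternatives changed the normalization, the filter, the choice of probe set, the spread model, the thresholds and the arrays used.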

Additional observations from a re-analysis of the deposited data

Results flagged for a closer look

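For 22 of the 30 genes with the largest shared differences, the collagen forms also differed from each other at an adjusted p below 0.05 by limma, so the distance from Matrigel had a different size in each form. Values are fibrillar minus non-fibrillar collagen on the log2 scale. Among genes higher in collagen, fibrillar collagen lay nearer to Matrigel by -1.03 in Il1a, -0.92 in Nt5e, -0.68 in Plscr2, -0.67 in Itga2, -0.50 in H2ac4, -0.49 in Rgs16, -0.49 in Ramp3, -0.45 in Erfe, -0.44 in Wfdc2, -0.36 in Hbegf, -0.33 in Tnc, -0.30 in Krt7 and -0.28 in Zfp57. Among genes lower in collagen it lay nearer to Matrigel by 1.05 in Atp8b1, 0.87 in Pcx, 0.76 in Pdk4, 0.71 in Sytl2, 0.67 in Gpnmb, 0.62 in Atp13a4, 0.55 in Plxdc1, 0.48 in Wfdc3 and 0.39 in Parm1. All 22 had non-fibrillar collagen farther from Matrigel. Groups of 3 arrays are too small for a check of single outlying arrays.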

How the results depend on the processing

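No shared gene that could be named reversed its direction in the alternatives run, but the balance of calls did: 942 genes were higher and 932 lower after quantile normalization again, and 955 and 823 after centring, against 753 and 1079 as deposited. With the 6 collagen arrays fitted as 1 group, 301 genes were higher and 522 lower, 299 and 520 of them shared. At an adjusted p below 0.01 there were 332 higher and 538 lower, 294 and 482 shared, and at a fold of at least 1.5 there were 27 and 114, 26 and 109 shared. Requiring both single comparisons to pass left 195 shared genes higher and 337 lower. Leaving out 1 array gave 411 to 688 genes higher and 610 to 1001 lower in collagen, 561 to 836 shared and lower, 134 to 261 higher and 219 to 457 lower in fibrillar collagen alone, and 823 to 1293 higher in non-fibrillar collagen alone.

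Same-numbered arrays deviated together weakly (correlations of deviations from 0.0449 to 0.253), and all 9 arrays correlated best with their own number. The main fit did not pair the samples by number, so any spread that goes with the number stayed in it. With a replicate block, 962 genes were higher and 1310 lower in collagen, and 1386 of the 1434 shared genes (96.7%) were kept. Quantile normalization again kept 1228 of them (85.6%) and centring on array medians 1184 (82.6%), with medians over all genes of 0.0216 and 0.0283. The fit as 1 group kept 819 (57.1%). Named genes that lost their call in it include Cd68, Timp1, Mylip, Cth, Dio2, Pdgfra, Pparg, Plin4, Id3, Ltbp2 and Itga1, among others. The loss is therefore not limited to the genes for which it is given above.

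Of 286 shared genes that could be named, 167 kept their call in every alternative that tested them (up to 19 each), 81 lost it without some array and 99 in another alternative. Among the 30 largest differences 27 never lost it. For lists, chosen after seeing the data, leaving out 1 array gave 15 to 23 lysosome genes lower, 14 to 23 mitosis and 11 to 18 replication genes higher, 9 to 11 lipid genes lower and 3 to 12 hypoxia genes higher. The filter on dim genes was the only check of low signal.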

Other observations

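Genes of the extracellular nucleotide pathway, in which nucleotides outside the cell are cut stepwise to adenosine, moved in both directions, with 3 of 18 shared and higher and 4 lower. Besides Nt5e, the nucleotide receptors P2ry6 (0.45 ± 0.074) and P2ry2 (0.28 ± 0.049) were higher. Entpd5, a nucleoside diphosphatase, measured 8.99, 9.01 and 9.05 in fibrillar collagen, 8.51, 8.48 and 8.56 in non-fibrillar collagen and 9.50, 9.56 and 9.52 in Matrigel, or 1.7-fold lower (adjusted p = 5.5e-06), and alkaline phosphatase, Alpl, 6.14, 6.05 and 6.21 in fibrillar collagen, 6.01, 6.07 and 5.87 in non-fibrillar collagen and 6.78, 6.77 and 6.89 in Matrigel, or 1.69-fold lower (adjusted p = 5.1e-05). The channel P2rx4 (-0.51 ± 0.069) and the receptor P2ry1 (-0.30 ± 0.056) were lower too. P2ry1 lost its call without Matrigel replicate 2.

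Guidance genes had 7 of 42 lower and 2 higher. Plxnd1, a semaphorin receptor, differed by -0.65 ± 0.054, the ligand Slit2 by -0.51 ± 0.041, Sema6d by -0.51 ± 0.079, the co-receptor Nrp1 by -0.36 ± 0.038 and the netrin Ntn4 by -0.21 ± 0.035, while Plxnb1 was higher (0.30 ± 0.046). Of 17 serpin B genes, 4 were lower and none higher: Serpinb9e, Serpinb9b (-0.66 ± 0.047), Serpinb8 (-0.37 ± 0.069) and Serpinb9 (-0.35 ± 0.05). They are close copies, so the single genes are uncertain, and Serpinb8 lost its call without Matrigel replicate 2. The IGF-binding protein Igfbp5 (-0.77 ± 0.10) was lower with Igf1, the only 2 shared genes of 21 in that axis. The complement protease Masp1 (-0.82 ± 0.062) was lower and the thrombin receptor F2r higher (0.45 ± 0.044).

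Notch targets Hey1 (-0.43 ± 0.066) and Hey2 (-0.31 ± 0.052) were lower, whereas the ligand Dll4 (0.60 ± 0.13), Rbpj (0.27 ± 0.054) and Hes6 (0.23 ± 0.044) were higher. All 3 higher calls ended without Matrigel replicate 2, and the probe sets of Rbpj disagree. Of 26 endoplasmic reticulum chaperones, Pdia6 (0.24 ± 0.044), Pdia4 and Hsp90b1 were higher and Dnajb9 lower. A second probe set of Pdia4 went the other way (-0.16 ± 0.057), and with the mean of both Pdia4 differed by 0.018 and lost its call. Of 21 p53 targets, Perp, Trp53inp1 (-0.33 ± 0.052) and Ei24 were lower and Pmaip1 higher. Without Matrigel replicate 2 the calls of Pdia4, Hsp90b1, Ei24 and Pmaip1 ended, and without replicate 3 that of Dnajb9. Glycosylation genes for dystroglycan and sialic acid had 1 of 26 shared, St3gal2 (-0.28 ± 0.043).

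Interferon response genes had 4 of 32 lower and none higher, and antigen presentation 1 of 13 lower. The interferon list's pooled median of -0.13 joined opposite medians, -0.33 in fibrillar and 0.16 in non-fibrillar collagen. The list's mean per array ran from 7.44 to 7.57 in fibrillar collagen, 7.96 to 8.03 in non-fibrillar collagen and 7.83 to 7.87 in Matrigel. As a whole the list thus did not move the same way in both forms. Mx1 differed from Matrigel by -0.34 in fibrillar and -0.12 in non-fibrillar collagen, and Parp14 by -0.34 and -0.11. Irf7, which was not shared, differed by -0.66 and 0.29, and Usp18 by -0.71 and 0.62. All 4 shared calls ended without Matrigel replicate 2.

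Markers of other cell types were shared for 1 of 14 in lymphocytes (Nkg7, 0.21 ± 0.05) and 1 of 15 in endothelial cells (Flt1, 0.23 ± 0.036). Among probe sets not given a single gene, 29 of 1621 with several symbols were shared and higher and 36 lower, and 70 and 137 of 12102 that were not listed. The antioxidant response element core TGACNNNGC was found on either strand in 10.8% of all promoters and 24% of those of the NRF2 list. Among promoters of the NRF2 list's shared members, 1 of 5 held it. The share was 11.3% for all genes shared and lower and 13.2% for all genes shared and higher.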
